A study of Mus musculus with 4 samples.

Results

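Interferon-stimulated genes are switched on in cells that sense interferon, and the 38 taken here are type I and type II interferon-induced genes with the regulators that act on them. They were a list of gene symbols, matched to the probe sets of the array through the platform annotation. Of the 38, 35 had a probe set that names them alone (60 probe sets in all), 2 (Isg15 and Trex1) lie only on probe sets shared with another gene and were not measured separately, and 1 (Ifi44) was not matched. Of the 35, 29 passed the low-signal filter and were among the 12645 genes tested, while 6 (Ifit2, Ifit3, Oasl2, Mx1, Mx2 and Rtp4) lay below it. Untreated female BALB/c mice aged 9 weeks, marked WT (wild type) in all sample titles, gave small intestinal cells bearing IgA. RNA of these cells was hybridised to 4 Affymetrix expression arrays, 2 of a CD11b-positive and 2 of a CD11b-negative fraction. CD11b is an integrin chain best known from myeloid cells, and IgA-positive cells of the gut wall are mostly antibody-secreting plasma cells. Labelling used the One-Cycle kit (RNA input 1 µg) for 1 array of each fraction and the 3' IVT Express kit (input 0.1 µg) for the other, so both kits hold both fractions. No label states that the pair of arrays within a fraction represents different mice or sortings, so a p-value here reflects the spread among these arrays alone, possibly technical, and with 4 arrays all values are imprecise.

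Type I interferons signal through the receptor chains IFNAR1 and IFNAR2, and the kinases Jak1 and Tyk2 then activate a complex of STAT proteins with Irf9 that binds the interferon-stimulated response element (ISRE). Type II interferon, or interferon gamma, signals through another receptor with Jak1 and Jak2, and its STAT dimers bind the gamma-activated site (GAS). The induced proteins sense viral nucleic acid, block viral entry, translation or release, or, like the guanylate-binding proteins, attack the compartments of intracellular microbes. In the gut wall, interferon genes respond to viruses and to the resident microbes.

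The promoters of these genes were searched for both elements, since they are the sites through which interferon acts. The list was chosen as interferon-induced genes, so it is not independent of these elements. RefSeq promoter sequences (build GRCm38.p6, from 250 bases before to 50 bases after the start) were at hand for 29 of the 38 genes. The ISRE core was written GAAANNGAAA, or TTTCNNTTTC on the other strand, and the GAS as TTCNNNGAA, which reads the same on both strands; the 2 elements can overlap. An ISRE core was found in 16 of 29 genes (55.2%), against 3.99% of all 27025 genes of the promoter table, and a GAS in 9 of 29 (31.0%), against 9.55%. A match describes the letters and is neither a site nor a cause. The stretches below, each 60 bases upstream of the start, show the matches in capitals, 5′ to 3′ along the gene's strand. Gbp2, Gbp3, Igtp, Bst2 and Irf1 are shown because they were lower in the CD11b-positive fraction in the fit with the kit as a block and have matches before the start (Ifitm3, also lower, has its 2 ISRE cores and a GAS from base 3 to base 29 after the start and is not printed), and Ifit1 and Ifit3 because they carry doubled ISRE cores while their signals lay near or below the low-signal filter.
Gbp2 (ISRE, chr3:142620578-142620637, plus strand): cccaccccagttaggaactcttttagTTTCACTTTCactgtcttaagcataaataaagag
Gbp3 (ISRE, chr3:142559976-142560035, plus strand): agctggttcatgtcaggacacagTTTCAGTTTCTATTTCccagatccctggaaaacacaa
Igtp (ISRE, chr11:58199496-58199555, plus strand): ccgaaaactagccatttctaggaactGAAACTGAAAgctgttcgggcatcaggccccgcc
Bst2 (ISRE, chr8:71537566-71537625, minus strand): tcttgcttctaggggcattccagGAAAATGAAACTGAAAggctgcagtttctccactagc
Irf1 (GAS, chr11:53769898-53769957, plus strand): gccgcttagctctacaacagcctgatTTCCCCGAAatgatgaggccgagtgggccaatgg
Ifit1 (ISRE, chr19:34640769-34640828, plus strand): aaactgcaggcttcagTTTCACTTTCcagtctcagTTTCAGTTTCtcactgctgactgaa
Ifit3 (ISRE, chr19:34583364-34583423, plus strand): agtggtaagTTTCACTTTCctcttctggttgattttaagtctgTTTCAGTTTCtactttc
In Gbp3 and Bst2 a pair of cores overlaps into a triple repeat, and in Ifit1 and Ifit3 the pair is separate. The Igtp and Bst2 promoters also hold a GAS, which in Bst2 overlaps the first core, and Irf1 holds a GAS and no ISRE core in this window.

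The genes split by level. Signals below are quantile-normalized intensities, and because each probe set has its own brightness they place a gene in the range of its array rather than rank genes by transcript number. Each gene is placed by its brightest probe set. Of the 29 tested genes, 7 lay above the 90th percentile of all probe sets on every array: Trim25, Ifitm3, Ifi35, Samhd1, Irf1, Bst2 and Ddx58. Trim25, Ifi35, Samhd1 and Ddx58 also have weaker probe sets that did not stay above it, so their level depends on the probe set. For Trim25 another bright probe set stayed above it, while the weakest had signals from 69.3 to 79.2. The weaker probe sets of Ddx58 ran from 30.3 to 42.6. In all, 17 had a mean signal of 100 or more, and 10 had a mean under 50, among them the antiviral effectors Ifit1, Oas1a, Rsad2, Eif2ak2 and Cmpk2, the sensors Ifih1 and Dhx58, and Usp18. The 6 genes below the filter had signals from 0.367 to 19.4 on any array and never exceeded the 53.4th percentile. Ifit3 was at 10.04 and 13.7 in CD11b-negative against 1.52 and 8.29 in CD11b-positive cells (One-Cycle before 3' IVT Express, and CD11b-negative before CD11b-positive, here and below). No fold is given for signals this low.

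**Figure D1:**
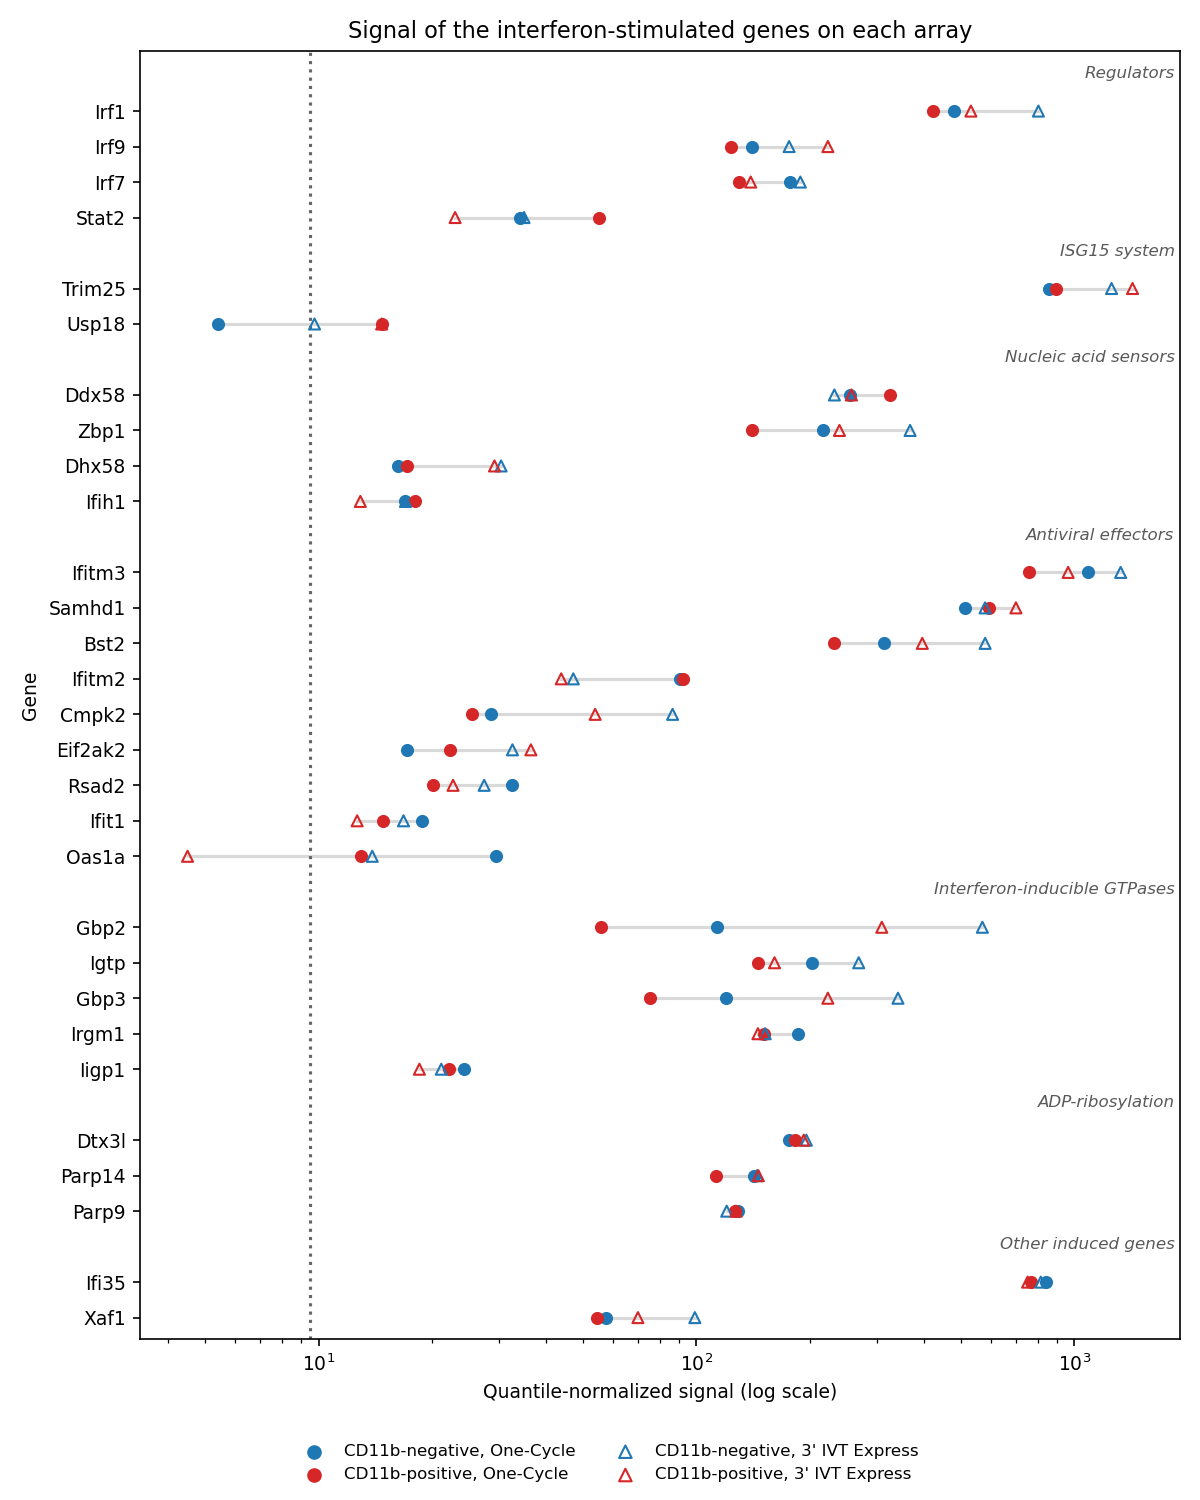
Quantile-normalized signal (log axis) of the 29 tested interferon-stimulated genes on each of the 4 arrays, grouped by role; colour gives the fraction, the marker shape gives the kit, grey lines span the arrays, and the dotted line marks the low-signal filter at a signal of about 9.51. Each gene is shown by its brightest probe set. Trim25 and Ifitm3 lie farthest to the right, Ifit1 and Ifih1 near the filter, and Gbp2 spreads from 55.8 to 571.

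The fractions were compared to see what sets CD11b-bearing IgA cells apart from the rest. Of the 29 tested genes 16 were lower in the CD11b-positive array with both kits, 5 were higher with both, and 8 had opposite signs. Oas1a, among the 16, and Usp18, among the 5, passed the low-signal filter only through the fraction where they were brighter. Among all genes tested 30.5% were lower and 31.6% higher with both kits. The median log2 difference of the 29 genes was -0.16, with -0.15 within the One-Cycle and -0.24 within the 3' IVT Express kit, against 0.0027 for all genes. Without CD11b-negative replicate 2 that median was -0.03, and without CD11b-positive replicate 2 it was -0.32. In bulk RNA, fewer cells of a type and less RNA per cell cannot be told apart.

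By limma's moderated test across all genes, 0 of the 29 genes passed at a Benjamini-Hochberg adjusted p under 0.05 (smallest adjusted p = 0.728), as did 0% of all genes. An unadjusted p under 0.05 was found for 2 of the 29 (Igtp and Ifitm3, both lower). Among all 12645 genes tested it was found for 842, of which 445 were lower and 397 higher. With the labelling kit as a block in the same limma model, 7 of the 29 genes were lower and 0 higher, where 4.14% of all genes were lower and 3.73% higher. The 7 were Gbp2, Gbp3, Igtp, Zbp1, Bst2, Ifitm3 and Irf1. Each gene has only 1 residual degree of freedom in that model, so its variance comes mostly from the prior shared across genes. Without a trend in that prior it called 0 of the 29 and 0 of all genes. On the signals as deposited it called 0 of the 29 lower and 4 higher, where the median gene was 0.42 log2 higher in the CD11b-positive arrays and 1.22% of all genes were lower and 28.9% higher. After centring on the median it called 1 lower (Gbp2) and 3 higher, against 1.64% and 13.7% of all genes.

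**Figure D2:**
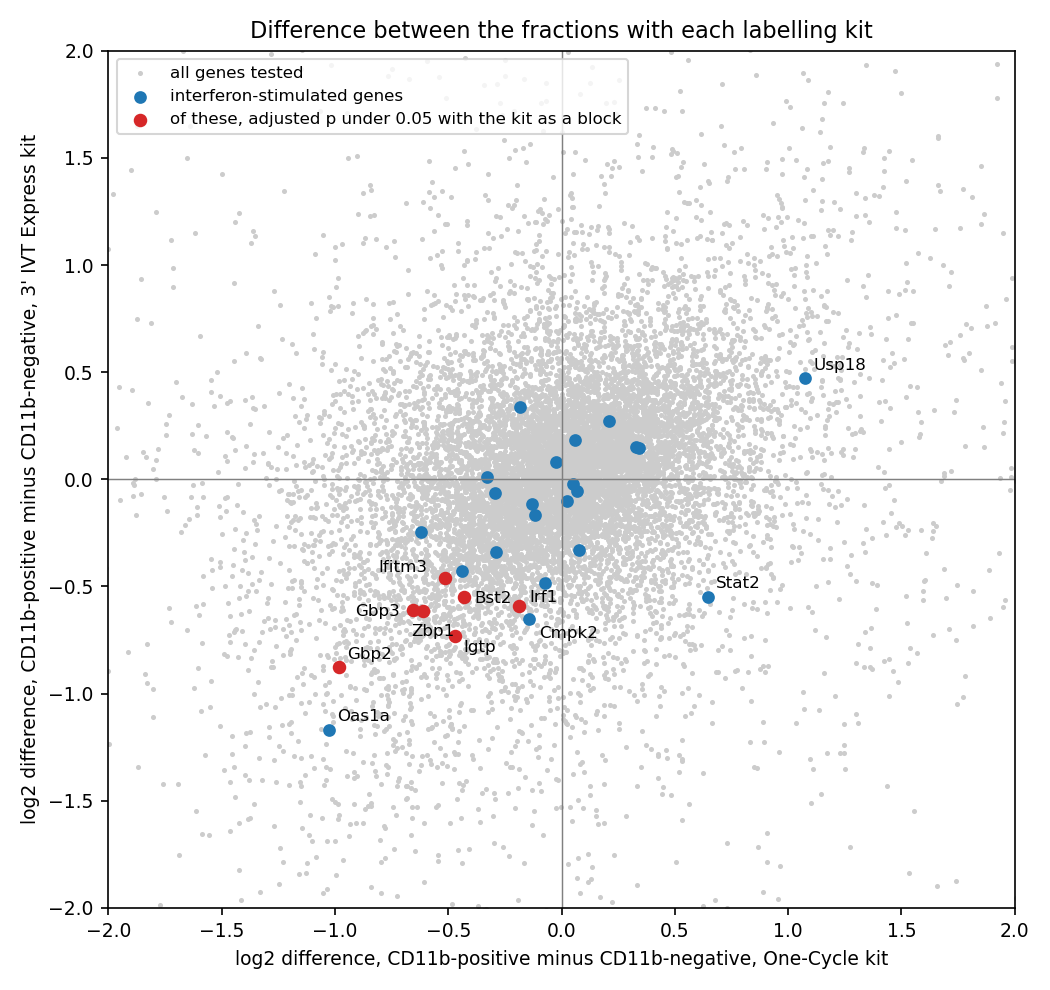
log2 difference between the fractions (CD11b-positive minus CD11b-negative) with the One-Cycle kit (horizontal) and with the 3' IVT Express kit (vertical); grey points are all 12645 genes tested, of which 247 lie outside the range shown, blue and red points are the 29 interferon-stimulated genes, and red marks the 7 that were lower in the fit with the kit as a block. The 7 red points lie at the lower left, from Gbp2 at -0.98 and -0.88 to Irf1 at -0.19 and -0.59.

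The interferon-inducible GTPases, which build coats on the vacuoles of intracellular microbes, included 5 genes, all measured. By the brightest probe set of each, all were lower in the CD11b-positive array with both kits (median log2 difference -0.60), against 30.5% of all genes. With the block 3 of them passed, where 4.14% of all genes were lower. Without probe sets whose names end in _a_at, _s_at or _x_at, only Igtp of these GTPases still passed. Gbp2 was then at -0.48 log2 (adjusted p = 0.159 with the block), and Gbp3 was not tested. Gbp2, a guanylate-binding protein, had signals of 113 and 571 without CD11b and 55.8 and 309 with it. The fractions overlapped across kits, but within each kit the CD11b-positive array was lower. With CD11b it was 1.90-fold lower (log2 difference -0.93 ± 0.16, SE with the block, adjusted p = 0.000202 with the block and 0.932 without). Its other probe set gave -0.24 and -0.72 log2 within the kits. Since the kits differed strongly for this gene, leaving out 1 array turned the difference to 0.28 (without CD11b-positive replicate 1) or 0.23 (without CD11b-negative replicate 2) on the log2 scale. Gbp3, of the same family, stood at 120.03 and 341 against 75.1 and 223, which was 1.55-fold lower (adjusted p = 0.0148 with the block). Again both kits showed the lower value in the CD11b-positive array, and leaving out the same arrays turned the difference to 0.13 and 0.11. Igtp, an immunity-related GTPase also called Irgm3, stood at 202 and 269 against 145 and 161. Its arrays did not overlap between the fractions, and it was 1.51-fold lower (adjusted p = 0.0161 with the block), with a log2 difference of -0.60 that was -0.40 without CD11b-negative replicate 2. Irgm1, a regulatory GTPase of that family, was at 185 and 152 against 150.5 and 145 (adjusted p = 0.642 with the block), and Iigp1, an effector GTPase, lay near the filter, from 18.5 to 24.2 on the 4 arrays. The other probe set of Iigp1, below the filter, was higher with both kits, at 2.80 and 7.59 against 8.83 and 8.34.

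Among the regulators, Irf1, a transcription factor induced through a GAS, stood at 480.5 and 803 in CD11b-negative against 422 and 532 in CD11b-positive cells. It was 1.31-fold lower (log2 difference -0.39, with -0.19 and -0.59 within the kits; adjusted p = 0.0468 with the block). Without CD11b-negative replicate 2 the difference was -0.02, and without CD11b-negative replicate 1 it was -0.76. Of the 11 alternatives of scaling, pseudocount, filter, probe set choice and prior that were tried with the block, 0 called Irf1. Under the alternative without probe sets whose names end in _a_at, _s_at or _x_at, Irf1 was not tested. Irf7, the factor that amplifies type I interferon production, was at 177 and 188 against 129.7 and 139. Its arrays did not overlap, and the 1.35-fold difference was nearly equal with both kits, but it did not pass (adjusted p = 0.125 with the block). Irf9, the DNA-binding partner of the STAT proteins at the ISRE, was at 140.4 and 176 against 123 and 223, with opposite signs between the kits. Stat2, another part of that complex, was at 34.2 and 35.0 against 55.2 and 23.0, and its sign also differed between the kits (the mean difference of 0.05 log2 turned below 0 under each of the 4 other scalings).

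Of the 14 antiviral effectors, 9 were tested, and 2 of them passed as lower with the block. Ifitm3, a membrane protein that blocks fusion of entering viruses, had signals of 1088 and 1326 in CD11b-negative against 760.3 and 963 in CD11b-positive cells. No array of one fraction reached the range of the other. It was 1.40-fold lower (862 ± 143 against 1207 ± 168, SD, n = 2 arrays each; limma adjusted p = 0.00184 with the block). Bst2, or tetherin, which holds budding virus at the cell surface, stood at 313 and 581 against 232 and 396. Its fractions overlapped across kits, and within the kits it was lower by -0.43 and -0.55 on the log2 scale (adjusted p = 0.0151 with the block). The mean log2 difference of -0.49 shrank to -0.05 without CD11b-negative replicate 2 and to -0.11 without CD11b-positive replicate 1, and was -0.94 and -0.85 without the other array of each fraction. Samhd1, an enzyme that degrades deoxynucleotides, went the other way, at 513 and 580.4 against 593 and 700.4 (adjusted p = 0.233 with the block), but with the mean of all its probe sets the difference turned to -0.20 log2. Ifitm2, close to Ifitm3 in sequence, stood at 90.3 and 47.2 against 92.0 and 43.9, within 0.1 log2 of equal with both kits. The weak effectors Ifit1, Oas1a, Rsad2, Cmpk2 and Eif2ak2 ran from 4.50 to 86.5 on the arrays, and none passed. Of these, Oas1a, an enzyme that activates RNase L, had the widest difference, with 29.5 and 13.9 against 12.9 and 4.50, the last below the filter (adjusted p = 0.253 with the block). The mean of its CD11b-positive arrays lay below the filter, so it was tested only because of its CD11b-negative arrays.

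Among the sensors of nucleic acid, Zbp1, which detects Z-form RNA and DNA and can start cell death, was at 216 and 368 against 141 and 239. The 1.53-fold lower signal had the same size with both kits (-0.61 log2 each; adjusted p = 0.00762 with the block). Its other, weaker probe set gave 0.55 and -0.06 log2, so the gene has no single direction over its probe sets, and the mean over both was -0.18. Leaving out CD11b-negative replicate 2 moved the difference of -0.61 to -0.23, and leaving out CD11b-positive replicate 1 moved it to -0.24; it was -1.005 and -0.96 without the other array of each fraction. Ddx58, which encodes the RNA sensor RIG-I, was at 256 and 232 against 325 and 257, without overlap and higher in the CD11b-positive fraction, but did not pass (adjusted p = 0.365 with the block). Its 2 weaker probe sets gave -0.17 and 0.03 log2, and the mean over all its probe sets was 0.03 in place of 0.24. Dhx58 and Ifih1, 2 other RNA helicases of this family, lay between 12.9 and 30.4 on the arrays, near the filter.

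In the ISG15 system, which attaches a small ubiquitin-like protein to targets, Trim25, a ubiquitin ligase that also activates RIG-I, was among the brightest genes of the list, at 858 and 1254 against 893 and 1425 (adjusted p = 0.575 with the block). Usp18, the protease that removes ISG15 and dampens the type I receptor, was at 5.41 and 9.75 against 14.7 and 14.7. It was the only gene of the list whose nearest arrays lay at least 1.5-fold apart, as for 4.45% of all genes. However, 1 CD11b-negative array lay below the filter and Usp18 did not pass (adjusted p = 0.538 with the block). The mean of its CD11b-negative arrays also lay below the filter, so it was tested only because of its CD11b-positive arrays. Its gap is therefore not evidence of a difference. Parp9, Parp14 and Dtx3l, which act in ADP-ribosylation and ubiquitination at the interferon response, stayed between 113 and 195 on all arrays with opposite signs between the kits. Ifi35, a leucine zipper protein, was at 842 and 815 against 769.9 and 752, lower with both kits (-0.13 and -0.12 log2). Taken relative to the median of all genes, its mean difference turned to 0.03 on the signals as deposited and to 0.02 after centring on the median. Xaf1, a cell death factor, ran from 54.4 to 99.01.

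Counted by overlap, 8 of the 29 genes had both CD11b-positive arrays below both CD11b-negative arrays and 3 had them above, where 17.3% of all genes were lower and 18.3% higher without overlap. Oas1a, among the 8, and Usp18, among the 3, passed the filter only through their brighter fraction. Of the 7 genes called with the block, only Ifitm3 and Igtp were among the 8. The remaining 5 called genes (Gbp2, Gbp3, Zbp1, Bst2 and Irf1) overlapped between the fractions, and each had a larger difference between the kits than between the fractions. Of the 13 tested genes with several probe sets above the filter, 4 had them all on one side of 0 and 9 did not.

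The labelling kits differed more than the fractions for part of the list. In the fit with fraction and kit, 9 of the 29 genes were higher with the 3' IVT Express kit (Gbp2, Gbp3, Cmpk2, Bst2, Zbp1, Trim25, Irf9, Irf1 and Ifitm3) and 1 (Ifitm2) was lower, against 7.96% and 6.72% of all genes. Gbp2 was 5.13-fold higher with that kit (adjusted p = 3.13e-11 by limma), by 4.95-fold in the CD11b-negative and 5.32-fold in the CD11b-positive fraction. Gbp3 was 2.84-fold higher (adjusted p = 2.79e-07), with 2.80-fold and 2.89-fold in the fractions. Cmpk2, a mitochondrial nucleotide kinase, was 2.38-fold higher and Bst2 1.77-fold. Irf7 and Igtp did not pass this test (adjusted p = 0.777 and 0.282). The called genes other than Igtp, 6 in all, are shared by the lists of lower genes and of genes higher with the 3' IVT Express kit. Kit, RNA amount and any difference in animals or sorts between the kits cannot be told apart.

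**Figure D3:**
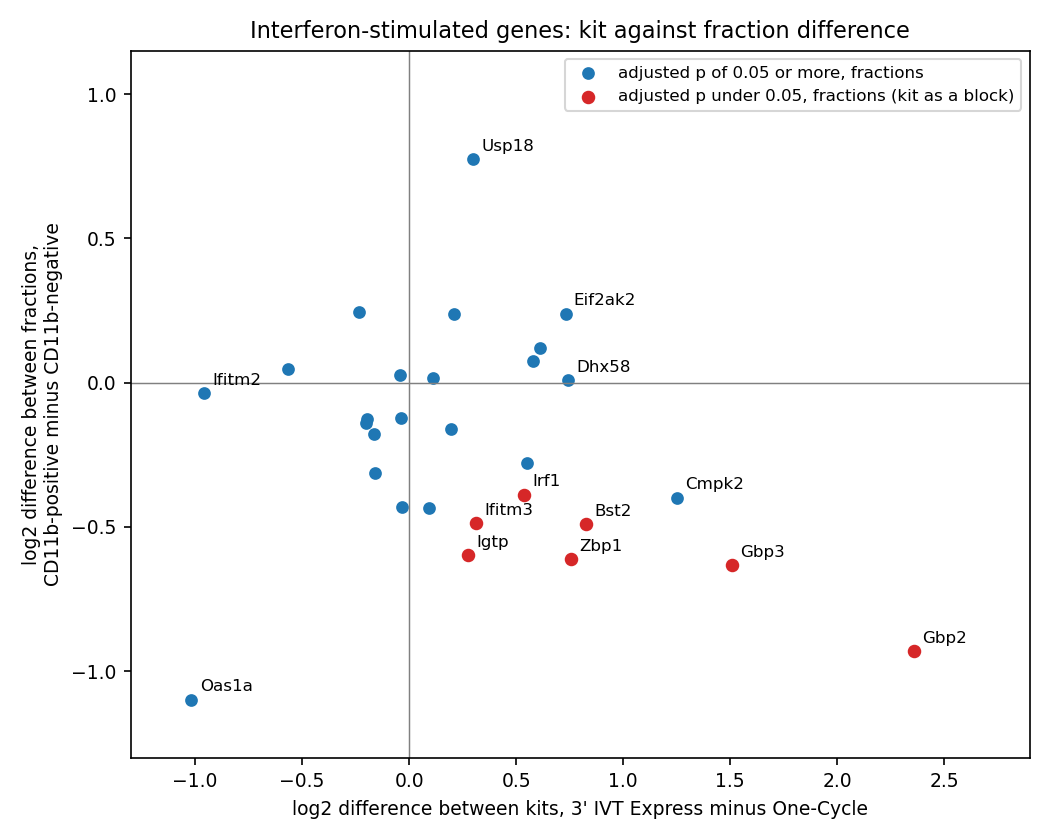
log2 difference between the kits (3' IVT Express minus One-Cycle, horizontal) against log2 difference between the fractions (CD11b-positive minus CD11b-negative, vertical) for the 29 tested interferon-stimulated genes; red marks the 7 lower in the fit with the kit as a block. Gbp2, at 2.36 and -0.93, lies farthest to the right.

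The other genes of the pathway came from lists of interferons, receptors with kinases and STAT proteins, inducers, negative regulators and further induced genes. Of 97 entries, 63 were tested, and with the block 12 were lower and 3 higher, where 4.14% of all genes were lower and 3.73% higher. The interferon genes themselves lay near the filter. Ifnab was at 16.3 and 3.24 against 15.07 and 11.9, and Ifna1 at 32.3 and 17.4 against 35.0 and 25.04. Ifnb1 was at 16.0 and 23.0 against 18.8 and 15.5, Ifng at 12.9 and 18.3 against 13.3 and 15.04, and no interferon gene passed. Of 9 tested receptors, kinases and STAT proteins, 4 were lower with the block and 0 higher, and their median log2 difference was -0.48. Ifnar2, a chain of the type I receptor, was at 392 and 622 against 255 and 388, which was 1.57-fold lower without overlap (adjusted p = 0.000907 with the block). Il10rb, a chain shared by the receptors of interleukin-10 and type III interferon, was 1.46-fold lower (adjusted p = 0.00156), Jak2 1.49-fold (adjusted p = 0.0123) and Stat3 1.41-fold (adjusted p = 0.0148), each without overlap between the fractions. With 1 array left out, the log2 difference of Ifnar2 ran from -0.99 to -0.32, of Il10rb from -0.83 to -0.27 and of Jak2 from -0.83 to -0.34, each nearest 0 without CD11b-negative replicate 2. Stat3 ran from -0.73 to -0.25, nearest 0 without CD11b-negative replicate 1. Ifnar1, the other type I chain, was at 408 and 402 against 313 and 336 (adjusted p = 0.146 with the block). Ifngr1, a chain of the interferon gamma receptor, was at 108 and 133 against 139 and 133 (adjusted p = 0.682 with the block).

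**Figure D4:**
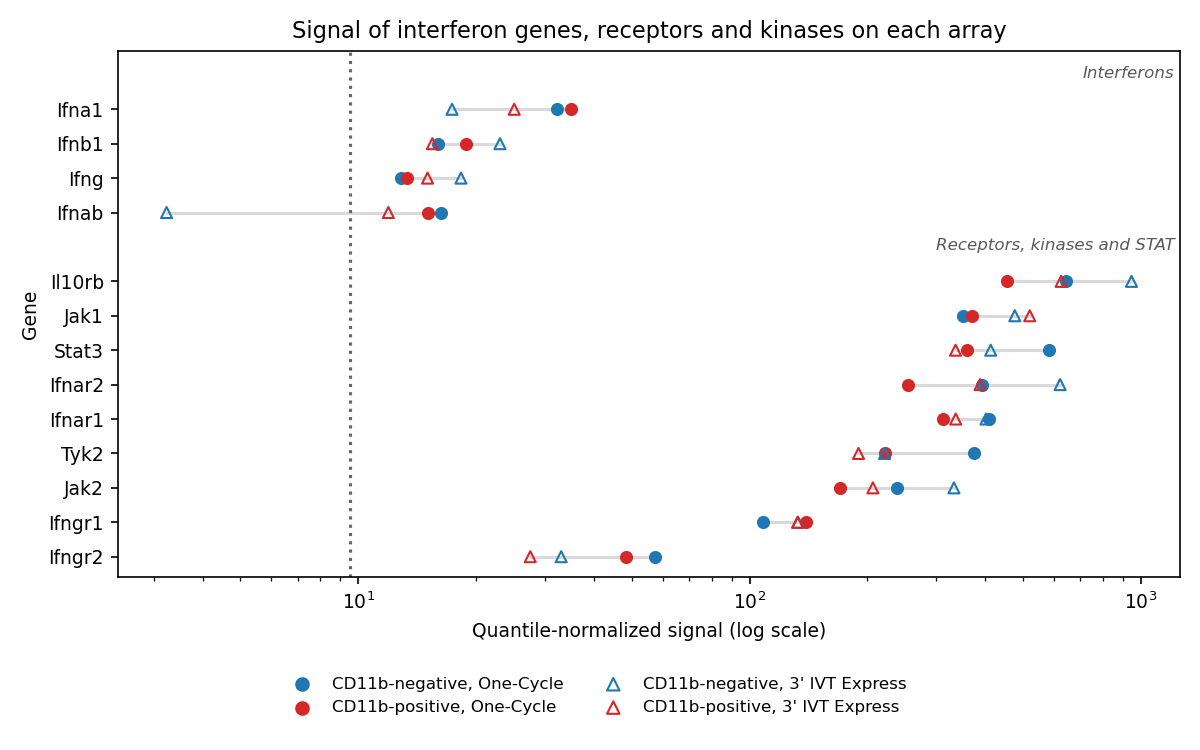
Quantile-normalized signal (log axis) of the tested interferon genes and of the receptors, kinases and STAT proteins on each of the 4 arrays, with colour for the fraction and marker shape for the kit; the dotted line marks the low-signal filter. Ifnar2, Il10rb, Jak2 and Stat3 have both CD11b-positive arrays to the left of both CD11b-negative arrays.

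Among the inducers, 1 of 8 tested genes was lower, Irf8, a transcription factor of B cells and myeloid cells (1.81-fold lower, 94.0 ± 15.7 against 172 ± 16.8, SD, n = 2 arrays each; limma adjusted p = 0.00246 with the block). Irf2, Irf5 and Irf3, next in order of p, did not pass (adjusted p = 0.304, 0.533 and 0.902 with the block). Of 9 negative regulators 1 was lower, Socs3, an inhibitor of JAK kinases (2.37-fold, at 140.5 and 613 against 79.3 and 189; adjusted p = 1.99e-05 with the block). The phosphatases Ptpn11 and Ptpn6 and the RNA editing enzyme Adar did not pass (adjusted p = 0.392, 0.474 and 0.507 with the block). Of 33 further induced genes, 6 were lower and 3 higher. Lgals3bp, a galectin-binding glycoprotein, was 2.37-fold lower and Ifi27, a mitochondrial protein, 1.99-fold lower. Uba7, which activates ISG15 for conjugation, was 1.61-fold lower. Ifi27l2a, a relative of Ifi27, was 1.83-fold higher, at 373 and 882 against 797 and 1391 (adjusted p = 4.93e-06 with the block). With 1 array left out, Socs3 ran from -2.33 to -0.19 log2 (nearest 0 without CD11b-negative replicate 2), Ifi27l2a from 0.26 to 1.48 (nearest 0 without CD11b-negative replicate 1) and Uba7 from -0.99 to -0.37 (nearest 0 without CD11b-positive replicate 2). Among the called genes counted above, Gbp7 turned from -1.145 to 0.20 and Ifi30 went from 0.40 to 0.25, both without CD11b-negative replicate 2. The other called genes of these lists kept their sign with 1 array left out. Irf8 ran from -1.03 to -0.67 log2, Lgals3bp from -1.38 to -1.11 and Ifi27 from -1.18 to -0.81. Cxcl10 ran from -1.06 to -0.96, Trim30a from -0.995 to -0.60 and Pml from 0.44 to 0.54.

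All 10 plasma cell markers were tested, and 9 of them were lower in the CD11b-positive array with both kits (median log2 difference -0.13, sums 54591 and 55784 against 51869 and 52209). Of these, 1 passed with the block: Sdc1, the surface proteoglycan CD138, at 5625 and 5941 against 3472 and 4155 (1.52-fold lower, adjusted p = 8.98e-06). Markers of other cell types also differed between the fractions. Of 18 epithelial markers, all tested, 16 were lower with both kits, and their summed signal was 7231 and 7518 in the CD11b-negative against 4149 and 3074 in the CD11b-positive arrays. Of 16 T, NK and innate lymphoid markers 13 were tested and 8 were lower with both kits, with sums of 5759 and 2184 against 2896 and 1517, while the 5 GTPases summed to 645 and 1354 against 449 and 857. Both marker sums and the GTPase sum were lower in the CD11b-positive array of each kit. Between the kits, the lymphoid sum was lower and the GTPase sum higher with the 3' IVT Express kit in each fraction. Of 18 macrophage, monocyte and dendritic cell markers 14 were tested, with sums of 568 and 512 against 756 and 625. Of these 14, 5 were higher with both kits, 3 were lower with both and 6 had opposite signs. Of 10 mature B cell markers 9 were tested, with sums of 4536 and 1920 against 2777 and 1898. Of these 9, 3 were lower with both kits, 1 was higher with both and 5 had opposite signs. Of 14 granulocyte and mast cell markers 8 were tested (sums 419 and 316 against 303 and 218), and of 10 stromal markers 7 (152 and 183 against 138 and 167). With the block, 14 epithelial markers, 5 lymphoid markers, 1 mature B cell marker and 1 granulocyte or mast cell marker were lower. Itgax, of the macrophage, monocyte and dendritic cell markers, was higher, and 0 stromal markers passed. Among all genes 4.14% were lower and 3.73% higher with the block. Beta-actin probe sets at the 3' end gave 1.90 and 1.84 times the signal of those at the 5' end against 1.43 and 1.61 times, a ratio that is higher for degraded RNA. The same ratio of Gapdh was 0.685 and 0.704 against 0.682 and 0.710, so the fractions did not overlap in the first control and overlapped in the second. The part of these cell types and of RNA quality in the differences was not tested.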

How the data were processed

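The authors deposited a linear signal intensity for each probe set and array; the submitters' processing notes name Affymetrix Expression Console and MAS5, and the sources used here give neither version nor scaling target. The 2% trimmed means of the deposited intensities ran from 48.6 to 90.3, so the signals were quantile-normalized. Values are log2(signal + 3), which understates folds at low signal. For each gene the brightest probe set naming it alone was used, if its mean log2 value exceeded the 40th percentile. The test across genes was limma's (version 3.58.1, R 4.3.3, eBayes with a trend, 2-sided, Benjamini-Hochberg), without the kit and with the kit as a block, and the code was tested on simulated data. Arrays of 1 kit are paired by the protocol in the labels, and their deviations from the fraction means correlated across genes (r = 0.387). Permuting 2 against 2 arrays exactly gives at best p = 0.333, so no such test is given. Members, lists and tests were chosen with earlier results of these data known. Values of all arrays are given for members that passed with the block, differed 1.5-fold between nearest arrays, were among the 8 brightest or are regulators. Other genes with values (Ifit3, Mx1, Mx2, Oas1a, Ifitm2, Irgm1, Iigp1, Cmpk2, Ifnar1 and Ifngr1) were chosen after their values were seen. Pathway genes were named by smallest p, up to 4 per list. Gbp7, Ifi30, Cxcl10, Trim30a, Pml and the markers Sdc1 and Itgax were named after their values were seen. List entries not matched are not analysed here.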

Additional observations from a re-analysis of the deposited data

How the results depend on the processing

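Alternatives combining the block with another choice, and leaving out arrays for the pathway lists, were added after seeing the data. Where another scaling moved the median of all genes by over 0.1 log2 (0.42 on the signals as deposited, 0.21 after centring on the median), values are relative to that median. The list median, -0.16, was -0.25 as deposited, -0.26 after centring, -0.32 with a common trimmed mean, and -0.32 to -0.027 on leaving out 1 array. With the replicate block, which follows the labelling kit, 7 listed genes and 996 of all genes passed, against 0 and 0; leaving out 1 array gave 0 to 24 calls over all genes. Without probe sets whose names end in _a_at, _s_at or _x_at, 10 of 22 tested genes were lower with both kits, against 16 of 29. The 7 genes lower with the block became 0 as deposited, 1 after centring, 3 (Bst2, Ifitm3 and Igtp) without such probe sets and 0 without the trend; under the other 7 alternatives 5 or 6 of them passed. Except where given above, the cause was not tested. Single genes that turned were Stat2 (-0.11 as deposited, -0.11 after centring, -0.14 with the trimmed mean, -0.0041 after cyclic loess, -0.064 with the mean of all probe sets), Ifi35 (0.0331 as deposited, 0.0234 after centring and 0.0223 with that mean) and Samhd1 (-0.20 with that mean). Zbp1 also turned, to 0.24 without probe sets whose names end in _a_at, _s_at or _x_at. With 1 array left out, a fraction is seen with 1 kit only, so the kit difference enters: Gbp2 ran from -2.12 to 0.28, Gbp3 from -1.40 to 0.13, Irf9 from -0.33 to 0.50 and Trim25 from -0.22 to 0.47, and without a turn Bst2 from -0.94 to -0.05, Zbp1 from -1.005 to -0.23, Irf1 from -0.76 to -0.02, Igtp from -0.81 to -0.40 and Ifitm3 from -0.66 to -0.33. The blocked fit was not run with an array left out, since no residual degrees of freedom remain. The 4 arrays and signals near background limit all values on weak genes.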
